A study of Mus musculus with 52 samples.

Results

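The genotype by oleic acid interaction in cultured mouse astrocytes is the change with oleic acid in Apoe knockout cells less that in wild-type cells, where a change is treated less untreated libraries. It was read from 12 of the 52 samples of the study, which sequenced RNA of epileptic brain and of lipid-treated astrocytes. The 4 groups were chosen by their labels and hold 3 libraries each. They are untreated wild-type astrocytes, wild-type astrocytes given oleic acid, untreated APOE KO astrocytes and APOE KO astrocytes given oleic acid, all of strain C57BL/6. The sources used here give no dose, time, carrier of the fatty acid, knockout allele, or age and sex of the donors. The labels carry an RNA protocol for frozen brain on every sample, and the title of the third untreated knockout library carries the word mix, which is not explained. Nothing says that the libraries of a group came from separate cultures. Each p-value thus reflects only how far libraries of a group scatter, pooled over 9 astrocyte groups, and that scatter may be technical.

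Astrocytes supply neurons with lipids and nutrients, clear glutamate and potassium, and take up fatty acids that active neurons release. Apolipoprotein E, the product of Apoe, is the main lipid carrier that astrocytes secrete. Oleic acid is a monounsaturated fatty acid that cells esterify into triglyceride, store in droplets under coat proteins such as perilipin 2 (Plin2), and burn in mitochondria, and fatty acids also act as ligands of the PPAR transcription factors.

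Levels are in TPM (a transcript count scaled for length and library total), and changes and interactions are differences in log2(TPM + 1), a scale that understates the change of low genes. A positive interaction means that the knockout change lay above the wild-type change, whatever the sign of each. An adjusted p is that of limma over all 16161 genes tested, a result passed the test when it was under 0.05, and errors are standard errors of the fit (± SE) or standard deviations over the 3 libraries of a group (SD). The 12 libraries hold 13784 to 14553 genes at 1 TPM or more, and their read depth is unknown. Mitochondrial transcripts made 5.52% to 6.83% of TPM in untreated wild-type, 2.96% to 3.98% in oleic acid wild-type, 6.41% to 6.64% in untreated knockout and 4.04% to 4.53% in oleic acid knockout libraries. Their part in the results was not tested.

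The wild-type groups differed from each other in genes that mark brain region and sex, which bears on every interaction below. En2, a transcription factor of the midbrain and hindbrain, stood at 1.05, 1.01 and 1.02 TPM in untreated wild-type libraries and at 93.7, 92.6 and 99.1 TPM in those given oleic acid. It stood at 112, 108 and 111.7 TPM in untreated knockout and at 109.6, 141.8 and 137 TPM in oleic acid knockout libraries. Only the untreated wild-type libraries of these 4 groups thus lacked a high En2 level, and wild-type astrocytes given medium of neurons stood at 1.00 ± 0.167 TPM (SD, n = 3). Foxa2, a floor plate factor, gave 0.12, 0.08 and 0.25 TPM in untreated wild-type libraries against 18.5, 29.5 and 26.9 TPM with oleic acid. In knockout libraries it was at 47.5 ± 1.63 TPM untreated and 49.0 ± 7.28 TPM with oleic acid (SD, n = 3 each).

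Of 10 factors of midbrain, hindbrain and floor plate, all tested, 10 had a negative and 0 a positive interaction past the test, with a median of -2.26 against -0.04 over all genes tested. The share of all genes past the test was 13.8% with a positive and 15.8% with a negative interaction. Counts of every list in this text are to be read against these shares. All 10 rose with oleic acid in wild type, while 1 rose and 1 fell in knockout. Their summed level was 23.5 to 24.9 TPM in untreated wild type and 20.6 to 23.1 TPM in wild type given medium of neurons. It was 218 to 253 TPM in wild type with oleic acid and 108 to 129 TPM in wild type with palmitic acid, so the higher level was not particular to oleic acid. Of 6 forebrain factors, 5 had a positive and 0 a negative interaction. Lhx2, a forebrain factor, fell from 93.5 ± 4.83 to 68.8 ± 3.43 TPM in wild type and stood at 18.4 ± 1.35 and 21.4 ± 2.08 TPM in untreated and oleic acid knockout libraries (SD, n = 3 each). These lists were chosen after their values were seen.

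Sex-linked transcripts moved between the same groups. The Y-linked Ddx3y stood at 19.1, 14.9 and 18.8 TPM in untreated wild type, at 1.27, 0.52 and 1.35 TPM in wild type with oleic acid, at 33.5, 32.0 and 31.3 TPM in untreated knockout and at 15.2, 14.2 and 14.8 TPM in knockout with oleic acid. Xist, the X-inactivation RNA, was at 34.6 ± 3.38, 11.7 ± 4.51, 3.18 ± 0.553 and 2.34 ± 0.331 TPM in the same order (SD, n = 3 each). Every group thus held both transcripts, in different proportions, and wild type with oleic acid was low in both relative to untreated wild type. Since these markers move with the groups, differences between the cultures and effects of oleic acid cannot be told apart in what follows.

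**Figure D1:**
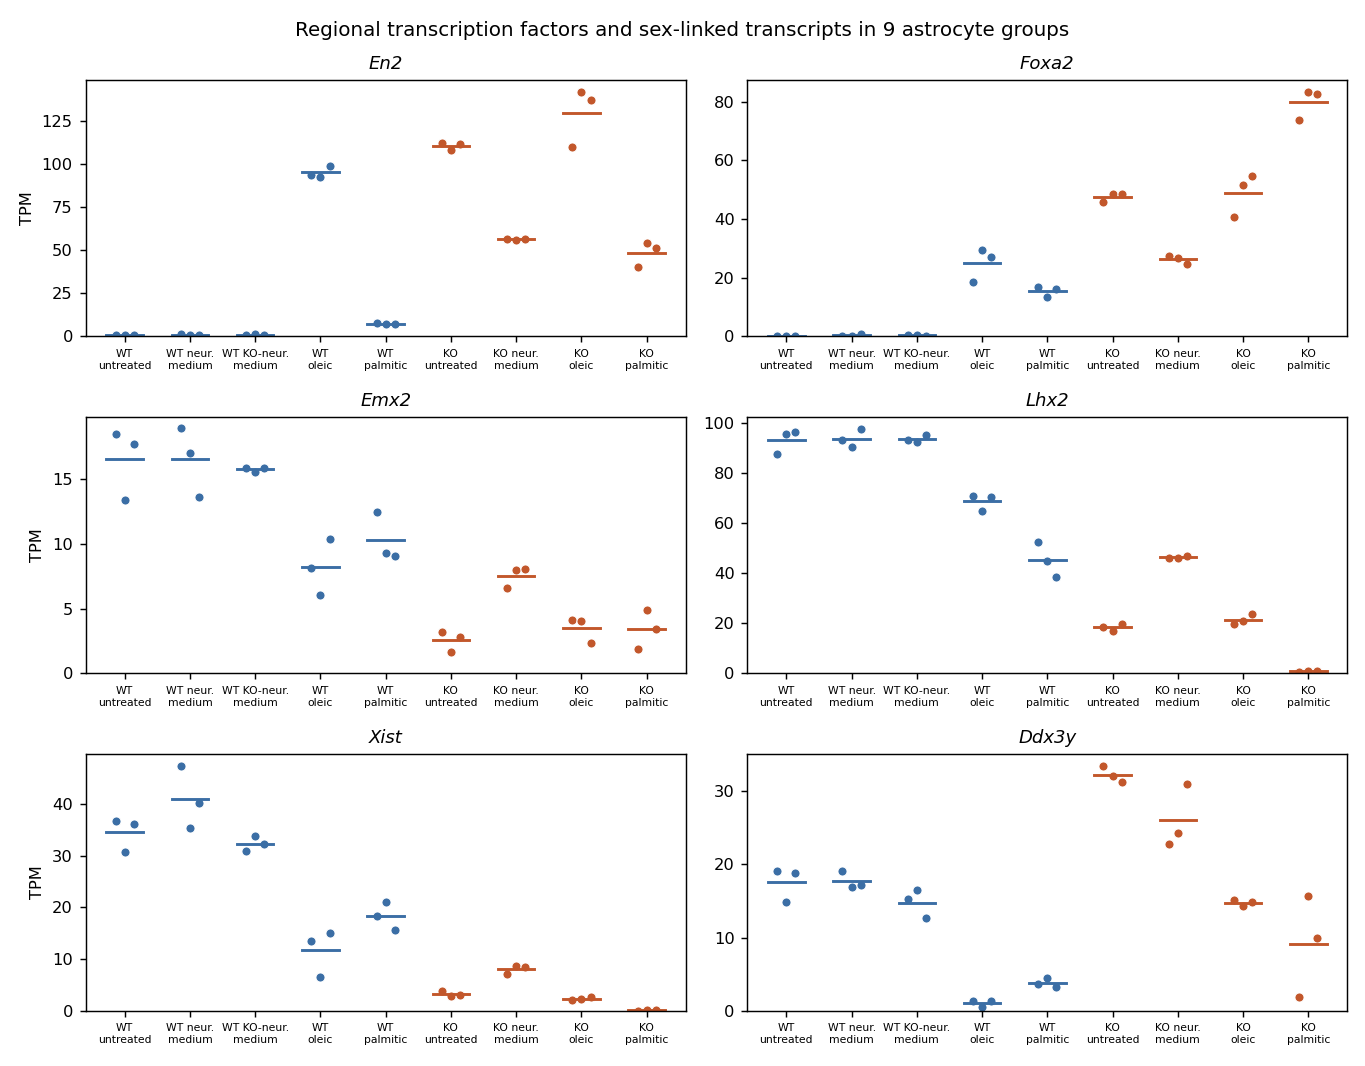
Levels in TPM (vertical axes, from 0) of 2 midbrain, hindbrain or floor plate factors (En2, Foxa2), 2 forebrain factors (Emx2, Lhx2) and 2 sex-linked transcripts (Xist, Ddx3y) in the 9 astrocyte groups (horizontal axes). Points are libraries and lines are means of 3. En2 is near 1 TPM in untreated wild type and in wild type given medium of neurons, and at 92.6 to 99.1 TPM in wild type given oleic acid.

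The labelled cell type was checked against its markers. Of 12 astrocyte markers, 11 were tested and Gjb6 stayed at or under 0.42 TPM in all 12 libraries. Their summed level was 2368 to 2649 TPM in untreated wild-type, 1251 to 1259 TPM in oleic acid wild-type, 577 to 594.5 TPM in untreated knockout and 598 to 642 TPM in oleic acid knockout libraries. Microglial and macrophage markers, 18 of 18 tested, summed to 619 to 685, 1103 to 1236, 534 to 571 and 1433 to 1542 TPM in that order. Fibroblast and meningeal markers summed to 2097 to 2225, 1596 to 1695, 5083 to 5374 and 3172 to 4478 TPM, above the astrocyte markers in both knockout groups and in wild type given oleic acid. A single member, Fn1, reached 4152 TPM in a library, while Slc47a1 was at 0 in all 12 libraries and Slc22a6 at or under 0.09 TPM. Neuronal markers summed to 440 to 471, 301 to 316, 284 to 289 and 300.1 to 310.3 TPM, of which Stmn2 reached 335 TPM in a library, while Rbfox3 and Snap25 stayed at or under 0.27 TPM. Markers of the oligodendrocyte lineage summed to 492 to 521, 252 to 276, 152 to 156 and 163 to 199 TPM, with Olig1 up to 313 TPM and Mobp at 0 in all 12 libraries, and 7 of 9 tested had a positive and 1 a negative interaction. Endothelial markers summed to 154 to 166, 26.4 to 47.8, 47.5 to 59.4 and 31.0 to 37.4 TPM, with Slco1a4 up to 150.4 TPM and Cldn5 at 0 in all 12. Mural cell markers summed to 6710 to 7357, 3586 to 4055, 5356 to 5425 and 3720 to 4309 TPM. Among them Acta2 reached 4133 and Tagln 3136 TPM in a library, while Higd1b was at 0 in all 12. Choroid plexus and ependymal markers summed to 267 to 325, 230.5 to 275, 116 to 124 and 178 to 184 TPM. Of 9 of these tested, 8 had a positive and 0 a negative interaction. The part of these cell types in the results was not tested. In such bulk RNA, fewer cells of a type and less RNA per cell cannot be told apart.

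The interaction passed the test in 2225 genes with a positive and 2554 with a negative sign. With oleic acid 31.2% of genes rose and 28.6% fell in wild type, and 21.7% rose and 20.1% fell in knockout. The standard deviation of the change over all genes was 0.73 in wild type and 0.47 in knockout. Genes with a positive interaction had a median change of -0.82 in wild type and 0.07 in knockout, and those with a negative interaction 0.60 and 0.01. At the middle of each set, the wild-type change made nearly all of the interaction.

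The genotypes also differed before any treatment. Knockout and wild type differed in 44.9% of genes when untreated and in 33.3% with oleic acid, and their median difference over genes with a positive interaction was -0.82 untreated and 0.05 with oleic acid. For 1324 of the 2225 genes with a positive interaction (59.5%), untreated wild type was the group farthest from the mean of the other 3, and for 1359 of the 2554 with a negative interaction (53.2%), against 35.6% of all genes tested. Oleic acid knockout was the farthest group for 6.83% and 2.55% of the called genes, against 11.3% of all genes. Untreated wild-type libraries enter both the wild-type change and the interaction, so these shares describe the groups and are not separate tests.

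**Figure D2:**
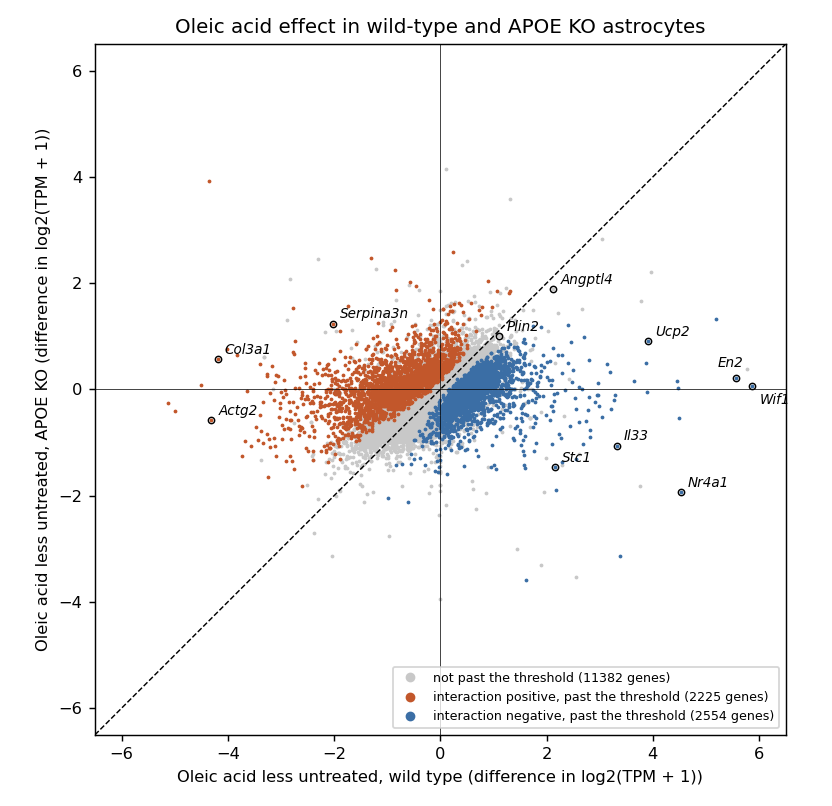
Change with oleic acid in wild-type astrocytes (horizontal axis) against that in APOE KO astrocytes (vertical axis), both as differences in log2(TPM + 1), for each of 16161 genes, with 3 libraries a group. The dashed line marks equal changes, and coloured points passed the test of the interaction (2225 positive, 2554 negative). Colours spread mainly along the horizontal axis, and Plin2 and Angptl4 lie near the dashed line.

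Apoe (ENSMUSG00000002985, chromosome 7, 19696109 to 19699188, GENCODE M21 on mm10) checks the labels. It stood at 4234, 4787 and 5024 TPM in untreated wild-type, 3203, 3438 and 3065 TPM in oleic acid wild-type, 40.4, 47.1 and 43.5 TPM in untreated knockout and 68.2, 72.9 and 71.4 TPM in oleic acid knockout libraries. Every knockout library lay below every wild-type library, as labelled, and no groups overlapped. With oleic acid Apoe fell by 0.53 in wild type and rose by 0.69 in knockout, an interaction of 1.22 ± 0.14 (limma adjusted p = 4.65e-07). On the TPM scale the wild-type fall exceeded the knockout rise by far, and what part of Apoe the knockout transcripts hold was not tested.

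Plin2 and most genes of fatty acid oxidation were higher with oleic acid in both genotypes. Plin2 (chromosome 4, 86648386 to 86670060), the droplet coat gene that marks lipid load, stood at 81.2, 87.1 and 84.6 TPM in untreated and 179, 196 and 175 TPM in oleic acid wild-type libraries. In knockout it stood at 87.6, 87.3 and 93.9 TPM untreated and at 173, 186 and 184 TPM with oleic acid. The treated and untreated libraries did not overlap in either genotype, and the 2 genotypes overlapped with oleic acid. It rose by 1.11 in wild type and 1.00 in knockout, and the interaction of -0.11 ± 0.08 did not pass (limma adjusted p = 0.357, 95% interval -0.27 to 0.06).

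Targets of PPAR and enzymes of fatty acid oxidation rose in most cases in both genotypes. Of 30 listed, 27 were tested, and 22 rose in wild type and 22 in knockout, with medians of 0.68 and 0.46. Angptl4, a secreted lipase inhibitor, rose by 2.12 in wild type (1.20 ± 0.255 to 8.55 ± 0.760 TPM) and by 1.89 in knockout (5.24 ± 0.316 to 22.5 ± 5.95 TPM; SD, n = 3 each). Its interaction of -0.24 ± 0.21 did not pass (limma adjusted p = 0.44). Cpt1a, which admits fatty acids into mitochondria, rose by 0.89 and 0.83, and Pdk4, which spares glucose from oxidation, by 1.34 and 1.00, and neither interaction passed (limma adjusted p = 0.742 and 0.224). Past the test the list held 2 positive and 7 negative interactions, with a median of -0.13. Smaller knockout rises were seen in Acadl, Acaa2 and Acadvl, dehydrogenase and thiolase genes of the mitochondrial pathway (interactions of -0.41, -0.44 and -0.22).

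Ucp2, a mitochondrial carrier that fatty acids are known to induce, departed from its list. It stood at 20.6, 25.6 and 20.3 TPM in untreated wild type and 314, 381 and 340 TPM in wild type with oleic acid, and at 221, 199 and 221 TPM in untreated knockout and 358, 426 and 419 TPM in knockout with oleic acid. The treated groups overlapped and the untreated groups did not. The rise was 3.90 in wild type and 0.90 in knockout, an interaction of -3.00 ± 0.16 (limma adjusted p = 6.8e-12).

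Genes that make, hold and release triglyceride had mostly negative interactions where they passed. Of 15 tested genes of triglyceride synthesis and droplet formation, 0 had a positive and 5 a negative interaction (median -0.10), and 9 rose in wild type and 7 in knockout. The 5 were Lpin2, Fitm2, Dgat1, Agpat1 and Gpat4 (-0.57 to -0.37), and 2 of the list passed with median-ratio scaling. Of 13 tested genes of the droplet coat and lipolysis, 1 had a positive and 6 a negative interaction. The triglyceride lipase Pnpla2 rose by 0.96 and 0.69 and the lysosomal lipase Lipa by 1.20 and 0.60 in wild type and knockout. G0s2, which inhibits Pnpla2, fell from 7.96 ± 0.678 to 1.36 ± 0.478 TPM in wild type and stood at 4.10 ± 1.39 and 4.13 ± 1.39 TPM in knockout (SD, n = 3 each), an interaction of 1.94 ± 0.29 (limma adjusted p = 2.1e-05). With median-ratio scaling, or without the first untreated wild-type library, 1 positive and 3 negative interactions passed in that list.

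**Figure D3:**
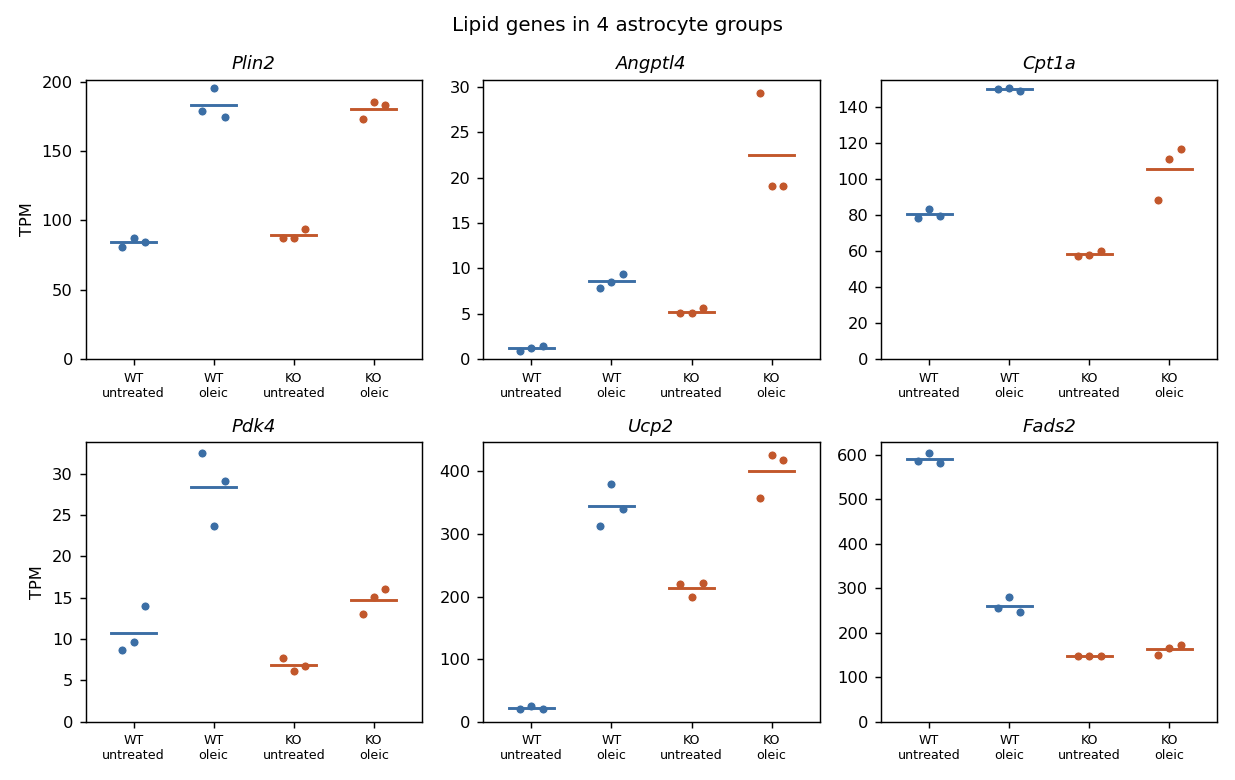
Levels in TPM (vertical axes, from 0) of Plin2, Angptl4, Cpt1a, Pdk4, Ucp2 and Fads2 in the 4 groups (horizontal axes). Points are libraries and lines are means of 3. Plin2 is at 173 to 196 TPM in both treated groups, while the untreated level of Ucp2 is 20.3 to 25.6 TPM in wild type and 199 to 221 TPM in knockout.

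Fatty acid desaturases fell with oleic acid in wild type and not in knockout. Fads2, the delta-6 desaturase (chromosome 19, 10062765 to 10101746), stood at 586, 605 and 581 TPM in untreated and 255, 281 and 248 TPM in oleic acid wild-type libraries, and at 148, 147 and 147 TPM in untreated and 149, 167 and 172 TPM in oleic acid knockout libraries. The wild-type groups did not overlap each other or the knockout groups. Its interaction was 1.32 ± 0.07 (limma adjusted p = 5.82e-12), with Fads1, Scd1 and Scd2, which desaturate other fatty acids, at 1.05, 0.99 and 1.07. Of 18 tested genes of fatty acid synthesis and desaturation, 8 had a positive and 2 a negative interaction, with 9 falling in wild type and 0 in knockout. Fasn, the fatty acid synthase, had an interaction of 0.07 that did not pass.

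Uptake, sterol and lipoprotein genes split in both directions. Of 17 tested genes of fatty acid uptake and activation, 6 had a positive and 4 a negative interaction. Fabp5, a fatty acid binding protein, was positive at 1.35 ± 0.10 and Acsl1, an acyl-CoA synthetase, negative at -0.79 ± 0.15. Of 26 genes of cholesterol synthesis and its regulation, 7 were positive and 4 negative, where 13.8% and 15.8% of all genes tested were. Hmgcs1 and Sqle, enzymes of the pathway, fell by 1.75 and 0.67 in wild type and by 0.65 and 0.24 in knockout. Ebp, a sterol isomerase, rose by 1.71 in wild type and 0.30 in knockout (interaction -1.41 ± 0.14).

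Among 21 tested genes of lipoprotein handling, 8 had a positive and 5 a negative interaction, with the ends set by 2 carriers. Apod, which encodes a small lipid carrier, gave 33.4, 36.0 and 32.0 TPM in untreated and 0.94, 1.16 and 1.41 TPM in oleic acid wild type, and at 4.71, 4.50 and 3.28 TPM in untreated and 7.36, 7.31 and 8.38 TPM in oleic acid knockout. No groups overlapped, and the interaction was 4.77 ± 0.16 (limma adjusted p = 3.04e-15). Apoa1, the main protein of high density lipoprotein, was listed at 0, 0.21 and 0 TPM in untreated wild type and at 36.9, 38.6 and 38.8 TPM with oleic acid, against 1.14 to 1.28 TPM in untreated and 4.26 to 5.05 TPM in oleic acid knockout, an interaction of -3.86. Clu, which encodes the carrier clusterin, fell by 0.54 in wild type and rose by 0.74 in knockout.

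Immediate early genes, which growth factors, calcium and stress induce within minutes and which encode transcription factors such as Fos and Jun, had almost only negative interactions. Of 23 genes, all tested, 0 had a positive and 21 a negative interaction, with a median of -1.77 against -0.04 over all genes. In wild type 18 rose and 2 fell with oleic acid, and in knockout 1 rose and 17 fell. Dusp1 and Ier3 did not pass, at -0.31 and -0.18 (limma adjusted p = 0.204 and 0.655). The summed level of the list was 569 to 600 TPM in untreated wild type, 1265 to 1352 TPM in wild type with oleic acid, 1246 to 1303 TPM in untreated knockout and 917 to 1036 TPM in knockout with oleic acid.

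Because the list moved together, promoters are shown for 3 of its 4 members with the smallest limma p of the interaction. Every TGACG, the half-site of the cyclic AMP response element, and its complement CGTCA are in capitals. Each promoter is the 250 bases before the RefSeq start on GRCm38.p6, read 5' to 3' on the strand of the gene. They lie at chr15:101266596-101266845 on the plus strand (Nr4a1), chr8:84978749-84978998 on the minus strand (Junb) and chr7:19310046-19310295 on the minus strand (Fosb). RefSeq promoters were matched for 3 of the 4 genes asked for, the other being Egr3.
Nr4a1: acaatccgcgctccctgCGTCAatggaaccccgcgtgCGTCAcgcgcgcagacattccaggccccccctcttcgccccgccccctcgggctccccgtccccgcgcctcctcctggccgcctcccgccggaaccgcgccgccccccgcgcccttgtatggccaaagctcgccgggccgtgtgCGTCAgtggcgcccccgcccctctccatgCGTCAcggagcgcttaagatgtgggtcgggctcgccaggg
Fosb: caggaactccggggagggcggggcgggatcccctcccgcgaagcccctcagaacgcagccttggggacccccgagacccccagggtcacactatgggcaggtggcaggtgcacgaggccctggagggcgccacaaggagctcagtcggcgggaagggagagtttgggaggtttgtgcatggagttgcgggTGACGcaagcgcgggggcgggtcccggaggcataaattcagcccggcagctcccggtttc
Junb: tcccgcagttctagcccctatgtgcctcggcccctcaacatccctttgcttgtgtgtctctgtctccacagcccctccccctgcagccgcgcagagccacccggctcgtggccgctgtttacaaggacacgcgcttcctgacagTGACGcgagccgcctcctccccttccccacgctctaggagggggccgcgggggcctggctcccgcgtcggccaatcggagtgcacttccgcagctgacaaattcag
The motif occurs 4 times in the Nr4a1 window and 1 time each in those of Fosb and Junb. It occurs at least 1 time, counting both strands, in 17.8% of 32851 windows of this length, and at least 4 times in 0.137%. Windows were found for 18 of the 23 immediate early genes, and 15 of their 22 windows (68.2%) hold the motif. The 3 windows shown are 66.4% to 74.4% G or C. The share over all windows was not matched for base composition, and the part of base composition was not tested. A match is a description of these letters and shows no binding.

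Nr4a1 (chromosome 15, 101254269 to 101274795), an orphan nuclear receptor and the most negative interaction among the genes that the naming rule allowed, stood at 2.59, 3.31 and 2.60 TPM in untreated and 97.7, 83.3 and 81.0 TPM in oleic acid wild-type libraries. In knockout it stood at 50.2, 46.0 and 49.8 TPM untreated and at 9.41, 12.9 and 14.1 TPM with oleic acid. No groups overlapped, and the order of the untreated and treated groups was opposite in the 2 genotypes. It rose by 4.53 in wild type and fell by 1.94 in knockout, an interaction of -6.46 ± 0.21 (limma adjusted p = 3.04e-15).

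Fosb, a partner of Jun, stood at 0.62, 0.91 and 0.71 TPM in untreated and 14.2, 7.76 and 13.2 TPM in oleic acid wild type, and at 3.37, 2.73 and 2.82 TPM in untreated and 0.98, 1.29 and 1.14 TPM in oleic acid knockout (interaction -3.72 ± 0.22, limma adjusted p = 2.42e-11). As for Nr4a1, the direction differed between genotypes and no groups overlapped. Junb rose from 24.9, 25.9 and 25.6 to 284, 264 and 224 TPM in wild type and stood at 191, 182 and 194 TPM in untreated and 239.6, 155 and 145 TPM in oleic acid knockout libraries. Its knockout groups overlapped, and its interaction of -3.39 ± 0.20 rested on the wild-type rise. Egr3, Arc and Fos fell by 1.42, 1.16 and 0.87 in knockout and rose by 1.57, 1.77 and 1.05 in wild type.

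**Figure D4:**
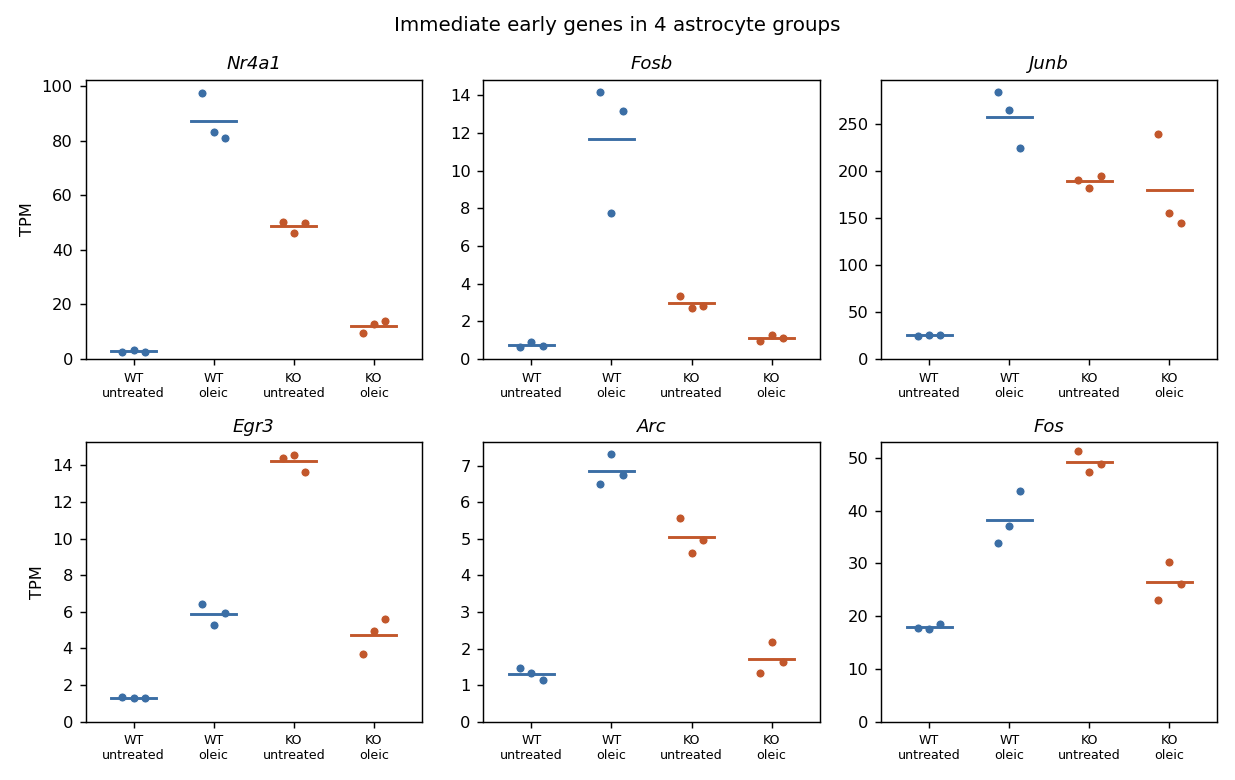
Levels in TPM (vertical axes, from 0) of 6 immediate early genes in the 4 groups (horizontal axes). Points are libraries and lines are means of 3. Nr4a1, Fosb, Egr3, Arc and Fos are higher with oleic acid in wild type and lower with it in knockout, and the knockout groups of Junb overlap.

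Ligands of the EGF receptor and genes that signal back on it moved in the same direction in part. Of 21 genes, 3 had a positive and 8 a negative interaction, against 13.8% and 15.8% of all genes tested. Areg, which encodes the ligand amphiregulin, stood at 0.22 to 0.32 TPM in untreated and 4.97 to 5.49 TPM in oleic acid wild type, and at 55.4 to 61.9 TPM in untreated and 20.1 to 26.9 TPM in oleic acid knockout. The 4 ranges did not overlap (interaction -3.66 ± 0.18, limma adjusted p = 9.2e-13). Errfi1, an inhibitor of the receptor, rose by 1.39 in wild type and fell by 0.95 in knockout. Spry1 and Spry2, which damp the pathway, were positive at 1.38 and 0.68.

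Stress genes gave interactions of both signs. Of 34 genes of the integrated stress and unfolded protein responses, 7 had a positive and 12 a negative interaction. Chac1, a glutathione-degrading target of Atf4, stood at 5.71, 4.36 and 4.72 TPM in untreated and 26.9, 23.5 and 22.3 TPM in oleic acid wild type, and at 7.78, 7.70 and 9.05 TPM in untreated and 5.34, 6.76 and 7.18 TPM in oleic acid knockout. The wild-type groups lay apart from each other and treated wild type from all others (interaction -2.40 ± 0.18, limma adjusted p = 1.31e-09). Atf4 itself, with Atf3 and Ppp1r15a, was negative at -1.07, -1.63 and -1.18. The serine synthesis gene Psat1 was positive at 0.58, and the endoplasmic reticulum chaperone Hspa5 was at 0.01 and did not pass. Of 14 heat shock chaperones, 1 was positive and 5 negative, and 3 negative ones passed with median-ratio scaling.

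Antioxidant genes gave more positive than negative interactions, 10 and 3 of 22 tested. Mt2, a metal-binding metallothionein, stood at 2444, 2540 and 2809 TPM in untreated and 2421, 2300 and 2370 TPM in oleic acid wild type, and at 872, 848 and 867 TPM in untreated and 2680, 2310 and 2455 TPM in oleic acid knockout. Only untreated knockout lay apart, and the rise of 1.52 in knockout gave an interaction of 1.66 ± 0.09 (limma adjusted p = 1.45e-11). Hmox1, which degrades heme, went the other way, from 167 ± 5.53 to 647 ± 25.2 TPM in wild type and from 225 ± 1.6 to 302 ± 21.1 TPM in knockout (SD, n = 3 each, interaction -1.52).

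Most nuclear genes of the respiratory chain rose in both genotypes. Of 34 genes, 23 rose with oleic acid in wild type and 22 in knockout, and 2 had an interaction past the test (Uqcrfs1 at 0.17 and Cox6c at 0.28), which 0 had with median-ratio scaling. All 34 interactions lay between -0.22 and 0.28. Transcripts of the mitochondrial genome fell in 11 of 13 in wild type and 5 of 13 in knockout, and 2 interactions passed (mt-Nd3 at 1.34 and mt-Atp6 at 1.88). That count was 6 with median-ratio scaling or when the 4 groups were fitted alone, 4 without the second untreated wild-type library, and 1 without replicate 1 or 3 of either untreated group or replicate 2 or 3 of either oleic acid group. Of 24 genes of glycolysis and lactate, 9 were positive and 4 negative, led by Aldoc, the astrocyte aldolase, which fell from 202 ± 12 to 40.8 ± 0.456 TPM in wild type (SD, n = 3 each).

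Most genes of astrocyte function fell in wild type with oleic acid. Of 15 tested genes of astrocyte homeostasis, 12 had a positive and 0 a negative interaction, with a median of 1.02. In wild type 11 fell, and in knockout 7 rose and 3 fell. Glul, glutamine synthetase, stood at 243, 268 and 267 TPM in untreated and 175, 173 and 171 TPM in oleic acid wild type, and at 82.2, 79.5 and 83.9 TPM in untreated and 116, 114 and 117 TPM in oleic acid knockout. All 4 groups lay apart, with a fall of 0.58 in wild type and a rise of 0.49 in knockout (interaction 1.07 ± 0.07, limma adjusted p = 8.35e-11). Gja1, the gap junction connexin, fell by 1.95 and 0.56. The astrocyte markers, whose summed level is given above, share 8 of their 12 members with this list, and their part was not tested.

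Gfap, the intermediate filament that rises in reactive astrocytes (chromosome 11, 102887336 to 102900912), gave 1080, 1206 and 1223 TPM in untreated and 559, 593 and 540 TPM in oleic acid wild type, and at 70.6, 71.5 and 70.3 TPM in untreated and 100.1, 103 and 108 TPM in oleic acid knockout. No groups overlapped. It fell by 1.05 in wild type and rose by 0.54 in knockout, an interaction of 1.59 ± 0.11 (limma adjusted p = 3.95e-10). Of 13 genes of pan-reactive astrocytes, 6 had a positive and 4 a negative interaction, with Serpina3n, a secreted protease inhibitor, at 3.25 ± 0.12 and Cd44, a hyaluronan receptor, at -0.80 ± 0.11.

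The lists of A1-type and A2-type reactive astrocytes, published sets from different injuries, held more positive and more negative calls respectively. Of 12 tested A1-type genes, 5 were positive and 2 negative, and of 11 tested A2-type genes, 1 was positive and 5 negative. Their median interactions were 0.58 and -0.06. The A2-type genes Tm4sf1 and Clcf1 rose by 2.19 and 1.82 in wild type, and their knockout changes of -0.06 and -0.09 did not pass. Of 10 tested synapse-promoting secreted factors, 6 were positive and 1 negative, with Sparcl1, a synapse organizer, at 1.98 ± 0.15.

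Genes of adenosine signalling were followed because the study also knocked down the A2a receptor in brain. Adora2a (chromosome 10, 75316877 to 75334784) stood at 0.18, 0.20 and 0.59 TPM in untreated and 1.58, 1.78 and 1.55 TPM in oleic acid wild type, and at 0.67, 0.60 and 0.33 TPM in untreated and 0.53, 0.57 and 0.42 TPM in oleic acid knockout. Only treated wild type lay apart, at a low level, with an interaction of -1.03 ± 0.19 (limma adjusted p = 0.000335). Of 11 tested genes, 5 were positive and 3 negative, among them the A1 receptor gene Adora1 at 1.14 and the nucleoside transporter Slc29a1 at -1.96.

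Most complement genes rose in knockout with oleic acid. Of 15 tested, 12 had a positive and 2 a negative interaction, with a median of 0.79. In knockout 10 rose and 2 fell, and in wild type 6 rose and 8 fell. C1qa, a subunit of the initiating complex, stood at 69.9, 78.0 and 72.2 TPM in untreated and 169, 208 and 173 TPM in oleic acid wild type, and at 67.0, 78.3 and 61.6 TPM in untreated and 280.2, 235 and 239 TPM in oleic acid knockout. The untreated groups overlapped and the treated groups did not (interaction 0.55 ± 0.16, limma adjusted p = 0.012). Serping1, an inhibitor of the initiating complex, fell by 1.34 in wild type and rose by 0.58 in knockout (interaction 1.92 ± 0.19).

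The central component C3 gave 31.9, 33.7 and 44.2 TPM in untreated and 20.1, 19.3 and 20.1 TPM in oleic acid wild type, and at 21.8, 22.6 and 28.1 TPM in untreated and 190.2, 61.5 and 62.1 TPM in oleic acid knockout. The first oleic acid knockout library stood above its other 2, and without it the interaction of 2.70 was 2.17 (limma adjusted p = 2.75e-05 and 2.04e-06). The same library held 41.3 TPM of the chemokine Ccl4 against 5.88 and 7.71 TPM, and the interaction of Ccl4 was 3.32 with it and 2.50 without it. Lcn2, a secreted iron carrier whose values were seen before it was chosen, was at 81.7 TPM in that library against 6.55 and 5.68 TPM in the other 2.

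Of 25 tested chemokines and cytokines, 5 had a positive and 3 a negative interaction, near the shares of 13.8% and 15.8% over all genes tested. The 3 negative ones were Il33, Tgfb1 and Csf1. Without replicate 3 of the oleic acid knockout group, 10 were positive and 3 negative. The median of the list was 0.48, with 0.15 without replicate 1 of that group and 0.91 without replicate 2 or without replicate 3. The summed level of the list spanned 1157 to 2172 TPM within that group, and that of interferon-stimulated genes 504 to 957.5 TPM. Of 27 tested interferon-stimulated genes, 7 were positive and 0 negative, and 20 did not pass. That count was 4 without the second untreated knockout library, without the first untreated wild-type library, or without a filter on low values.

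Microglial and macrophage markers, which share C1qa, C1qb and C1qc with the complement list, had mostly positive interactions. Of 18 tested, 14 had a positive and 0 a negative interaction, with a median of 0.80. In knockout 15 rose and 0 fell, and in wild type 9 rose and 4 fell. Cx3cr1, the microglial fractalkine receptor, stood at 12.4, 14.8 and 13.8 TPM in untreated and 13.9, 14.1 and 14.4 TPM in oleic acid wild type, and at 7.51, 7.27 and 6.69 TPM in untreated and 24.4, 20.8 and 21.9 TPM in oleic acid knockout. The wild-type groups overlapped, and the knockout groups lay on either side of them (interaction 1.47 ± 0.12, limma adjusted p = 4.87e-09). Trem2, a lipid receptor of microglia, rose by 1.16 and 1.34, and its interaction of 0.17 ± 0.23 did not pass (limma adjusted p = 0.625). The summed level of these markers is given above, and its part in the complement result was not tested.

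Most collagen, contractile and cell cycle genes fell in wild type with oleic acid. Of 23 collagen chains, all tested, 16 had a positive and 3 a negative interaction, with a median of 0.84, and 16 fell in wild type against 7 in knockout. Col3a1, a fibrillar collagen (chromosome 1, 45311538 to 45349706), stood at 119.7, 123 and 109.7 TPM in untreated and 7.09, 5.44 and 4.21 TPM in oleic acid wild type, and at 6.75, 6.41 and 6.22 TPM in untreated and 9.75, 10.7 and 9.73 TPM in oleic acid knockout. Untreated wild type stood more than an order of magnitude above the other groups, and the interaction of 4.76 ± 0.24 (limma adjusted p = 2.16e-12) rested on its fall. Col1a1 did not follow that pattern of levels, at 396 ± 18, 137 ± 9.73, 804 ± 27.4 and 579 ± 78.4 TPM in the order above (SD, n = 3 each), with falls of 1.52 in wild type and 0.48 in knockout. The summed level of the fibroblast and meningeal markers, which share Col1a1, Col1a2 and Col3a1 with this list, is given above, and its part was not tested.

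Of 15 tested contractile genes of smooth muscle, 10 were positive and 1 negative, with 13 falling in wild type and 15 in knockout. Actg2, the enteric actin, was the extreme at 3.74 ± 0.20, and Acta2, smooth muscle actin, was at 0.60 ± 0.12. Of 31 cell cycle genes, 20 were positive and 2 negative (median 0.53), with 25 falling in wild type and 14 in knockout. Aurkb, a mitotic kinase, stood at 37.1, 38.8 and 35.8 TPM in untreated and 21.1, 21.3 and 21.8 TPM in oleic acid wild type, against 39.4, 41.1 and 42.9 TPM in untreated and 39.5, 46.5 and 46.0 TPM in oleic acid knockout. Treated wild type lay below the other groups, and the knockout groups overlapped (interaction 0.86 ± 0.10, limma adjusted p = 8.12e-07).

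**Figure D5:**
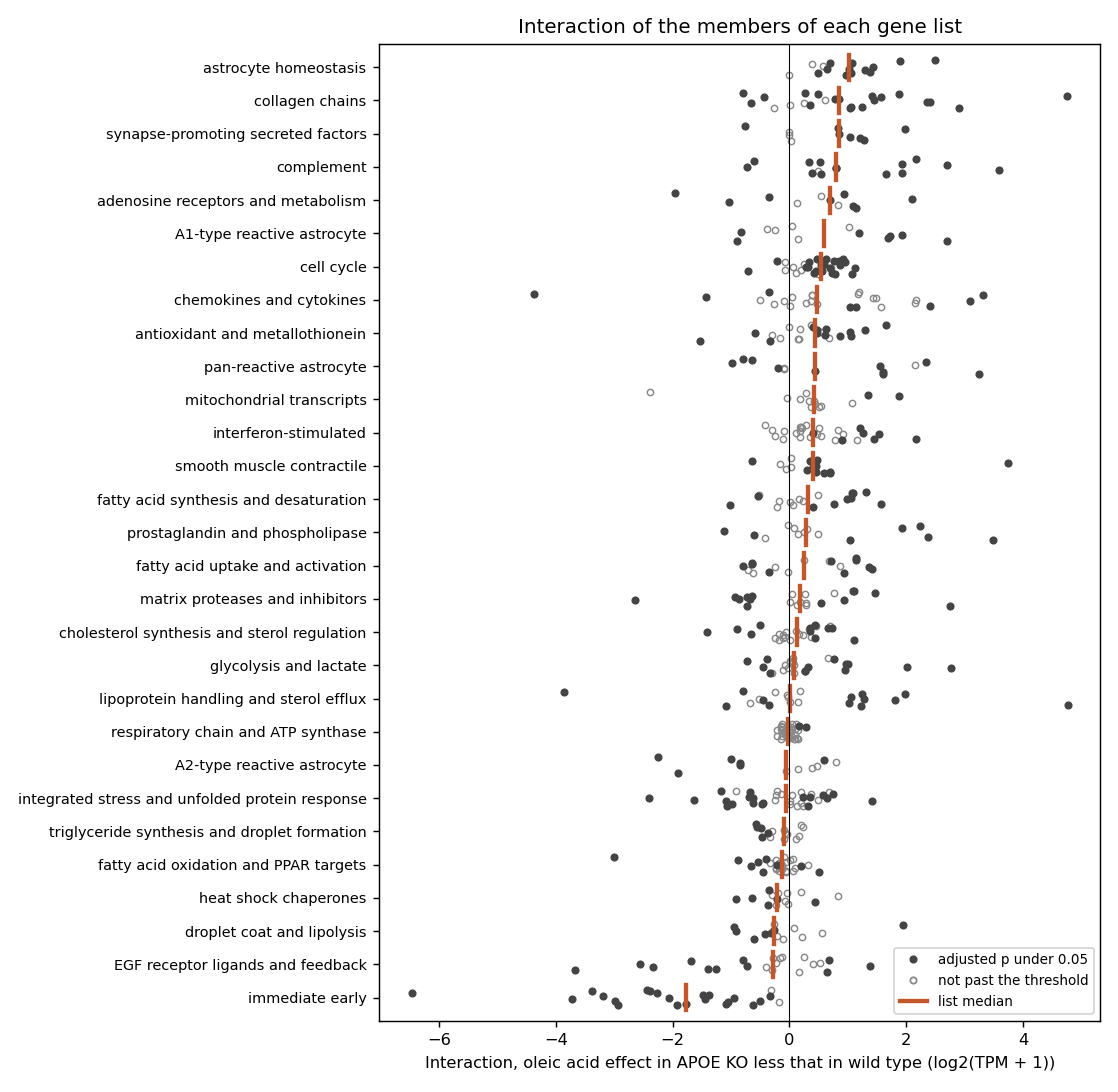
Interaction (horizontal axis, oleic acid change in APOE KO less that in wild type, in log2(TPM + 1)) of each tested member of 29 gene lists (rows). Filled points passed the test, open points did not, and orange bars are list medians. Among these 29 lists immediate early genes lie lowest, with a median of -1.77, and the astrocyte homeostasis list highest, with a median of 1.02. Lists of cell type markers, regional factors and sex-linked transcripts are not shown, and some of them have medians beyond these.

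The genes that the naming rule took for the size of their interaction did not all share a pattern. In Col3a1 and Wif1 untreated wild type stood apart from the rest, while Nr4a1 and Il33 also fell in knockout. The 10 positive ones were Col3a1, Actg2, Itih3, Pla2g7, Scrg1, Itm2a, Serpina3n, Fxyd6, Aldoc and Mmp2, from 4.76 down to 2.76. Pla2g7, a secreted phospholipase that cleaves oxidized lipids, gave 108, 107 and 127 TPM in untreated and 18.8, 13.9 and 14.9 TPM in oleic acid wild type, and at 5.70, 5.81 and 4.98 TPM in untreated and 8.72, 11.8 and 8.46 TPM in oleic acid knockout. All 4 groups lay apart. The matrix protease Mmp2 fell by 2.73 in wild type, and its change of 0.03 in knockout did not pass.

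The 10 negative ones were Nr4a1, Wif1, En2, Cnpy1, Foxa2, Il33, Foxa1, Medag, Stc1 and Vill, from -6.46 to -3.58. Wif1, a secreted inhibitor of Wnt signalling, stood at 1.52, 1.83 and 2.29 TPM in untreated wild type and at 175, 148 and 176 TPM with oleic acid. In knockout it was at 160, 158 and 156 TPM untreated and at 143, 173 and 183 TPM with oleic acid. Only untreated wild type lay apart. Il33, an alarmin cytokine, gave 5.33, 4.70 and 5.67 TPM in untreated and 66.6, 52.0 and 65.3 TPM in oleic acid wild type, and at 389, 392 and 393 TPM in untreated and 177, 194 and 191 TPM in oleic acid knockout. It rose by 3.32 in wild type and fell by 1.06 in knockout, with all 4 groups apart.

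Palmitic acid, a saturated fatty acid, was given to both genotypes in the same study. The labels do not say whether its libraries shared cultures or an experiment with the oleic acid libraries. The effect of palmitic acid was compared by the oleic acid interaction less the palmitic acid interaction. The untreated libraries cancel in that difference, which sets knockout with oleic acid against knockout with palmitic acid and the same in wild type. It passed the test with a positive sign in 40.9% of genes and a negative one in 17%. With median-ratio scaling, 4691 genes were positive and 4797 negative, against 6615 and 2753, and the median of all genes was 0.00 in place of 0.30. Values below are to be read against that 0.30. Knockout libraries with palmitic acid stood apart, with 12057 to 12915 genes at 1 TPM or more, 17% to 19.1% of TPM in ribosomal protein genes against 7.79% to 12.1% in the 12 libraries above, and microglial markers summing to 123 to 138 TPM.

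Against palmitic acid, the immediate early list lost its uniform sign. Of its 23 genes, 5 were positive and 11 negative, with a median of -0.44. Nr4a1 stood at 47.6 ± 1.81 TPM in wild-type and 182 ± 15.6 TPM in knockout libraries with palmitic acid, against 87.3 ± 9.02 and 12.1 ± 2.42 TPM with oleic acid (SD, n = 3 each), a difference of -4.68 ± 0.21 (limma adjusted p = 7.58e-14). Fos, at 89.7 ± 4.62 and 34.1 ± 5.94 TPM with palmitic acid (SD, n = 3 each), gave 0.87 ± 0.31. Plin2 was at 327 ± 19.0 TPM in wild type and 401 ± 23 TPM in knockout with palmitic acid (SD, n = 3 each), above both oleic acid groups, with a difference of -0.31 ± 0.08 (limma adjusted p = 0.00225).

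Microglial and cell cycle genes differed positively between the fatty acids, and sterol genes negatively. Of 18 microglial and macrophage markers, 17 were positive and 1 negative (median 4.35), and C1qa was at 185 ± 16.2 TPM in wild type and 5.47 ± 0.826 TPM in knockout with palmitic acid (SD, n = 3 each). All 31 cell cycle genes were positive, with a median of 3.20. Of 26 genes of cholesterol synthesis and its regulation, 25 were negative and 0 positive, with a median of -1.65, and Insig1, a sterol sensor partner, was at -3.28. The sources used here give no dose or time for either fatty acid, so these values are not a comparison at matched doses. Region and sex markers also differed here. Of 10 factors of midbrain, hindbrain and floor plate, 5 were positive and 5 negative. Of 6 forebrain factors 5 were positive, and so were all 5 sex-linked transcripts, against 40.9% positive and 17% negative over all genes. Differences between the cultures and between the fatty acids cannot be told apart.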

How the data were processed

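RNA of cultured mouse astrocytes was sequenced, and for these samples the authors deposited TPM per gene, a unit inferred from column totals. The submitters' processing notes list the tools HISAT2, StringTie and RSEM and the genome build mm10, with no version or role. Library preparation from 1 ug of total RNA with an Illumina TruSeq kit is given per the labels' protocols. Columns were matched to samples by name.

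The 53700 genes of the table were filtered to the 16161 at 1 TPM or more in at least 3 of 27 astrocyte libraries. Values were fitted as log2(TPM + 1) with limma 3.58.1 in R 4.3.3, with a mean-variance trend, for all 9 astrocyte groups of 3, which share an estimate of spread on 18 residual degrees of freedom. Contrasts gave the interaction, the change in each genotype, the genotype difference at each treatment and the oleic acid interaction less that of palmitic acid. The threshold was 0.05 after Benjamini-Hochberg adjustment over all genes tested. The fit was tested on simulated data with independent noise and planted interactions. That test did not model cultures that differ between groups, so it cannot bear on that limit.

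Gene lists and members were chosen with earlier results of these data known. The text always names Apoe, Plin2, Gfap and Adora2a. It names the 10 largest interactions past the threshold in each direction, among genes with a mean level over the 12 libraries above the median, without predicted genes, pseudogenes, Y-linked genes and Xist. It also draws on up to 4 members of each list described with the smallest p, and other list members are named as examples after their values were seen. Some genes that the rule takes are not reported here. Coordinates are from GENCODE M21 on mm10, which matched 16096 of the tested identifiers, and promoter sequences from RefSeq on GRCm38.p6. Alternatives were median-ratio scaling, a pseudocount of 0.1, no filter, a filter of 5 TPM, a fit of the compared groups alone, a replicate block, robust empirical Bayes, the sign on the TPM scale and leaving out each library.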

Additional observations from a re-analysis of the deposited data

Results flagged for a closer look

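The change with oleic acid differed between the genotypes, by the test of the interaction, in 2225 genes with a positive and 2554 with a negative sign. The interaction itself differed between oleic acid and palmitic acid in 6615 genes with a positive and 2753 with a negative sign, where palmitic acid knockout libraries stood apart from all others.

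The 20 genes named for the size of their oleic acid interaction also differed from their palmitic acid interaction past limma's test. For the positive ones the difference in log2(TPM + 1) was 2.49 for Col3a1, 2.1 for Actg2, 4.37 for Itih3, 2.39 for Pla2g7, 3.8 for Scrg1, 3.69 for Itm2a, 5.83 for Serpina3n, 4.94 for Fxyd6, 0.41 for Aldoc and 0.76 for Mmp2. For the negative ones it was -4.68 for Nr4a1, -2.01 for Wif1, -2.16 for En2, -0.92 for Cnpy1, -1.34 for Foxa2, -1.86 for Il33, -1.27 for Foxa1, -2.61 for Medag, -1.42 for Stc1 and -2.44 for Vill. The median over all genes was 0.30. These genes were chosen for their oleic acid interaction, which is part of this difference, so its sign is no separate support.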

How the results depend on the processing

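The number of interactions past the threshold was 4779, between 4045 and 4777 under the alternative settings and between 4238 and 4653 when a library was left out. With median-ratio scaling, 55.9% of them were positive in place of 46.6%. On the plain TPM scale, 4758 of the 4779 kept their sign. The count of changes with oleic acid was 9669 in wild type (8250 to 10106, and 8457 to 9511 with a library left out) and 6749 in knockout (6057 to 6895, and 5389 to 5962). The genotype difference counted 7258 untreated (5910 to 7943, and 6417 to 6628) and 5378 with oleic acid (4705 to 5383, and 4497 to 4885). The difference between the fatty acids counted 9368 (8231 to 9672, and 8623 to 9787), 70.6% of them positive and 49.4% with median-ratio scaling.

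Of 165 named genes, 160 passed, and 8 of these missed the threshold under at least 1 setting, with 0 changes of sign. Of 40 lists, 9 had a count that moved by more than 1.5 times under some setting. Whether replicate numbers pair the libraries is not settled by these values. Deviations of same-numbered libraries correlated at -0.0431 to 0.121 (median 0.0218), against a median of -0.0149 for libraries of different numbers. Of 36 comparisons, 19 were best with their own number. With a block by replicate number, 4643 interactions passed. Read depth is unknown, and low genes are limited by the pseudocount.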
